A study of Mus musculus with 4 samples.

Results

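The transforming growth factor beta (TGF-beta) system was examined through 10 genes in a fibroblast line in which the transcription factor CDX2 was switched on. They are the ligand genes Tgfb1, Tgfb2 and Tgfb3, the receptor genes Tgfbr1 and Tgfbr2, the latent TGF-beta binding protein genes Ltbp1, Ltbp2, Ltbp3 and Ltbp4, and Vasn, which encodes vasorin. Members were picked by gene symbol, and all 22 transcript rows with these symbols were taken from a table of 40739 transcripts of 25177 symbols. The set was proposed with the results of this same comparison known, above all the fold change of Vasn, so the fold changes and adjusted p-values of the members are given as a description and support no claim about the set.

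Cells were NIH-3T3 mouse embryonic fibroblasts that stably carried a histone H2B-mCherry label, the rtTA3G transactivator and a CDX2 transgene under the TRE3G promoter, which responds to doxycycline. The label, the transactivator and the transgene were present in both groups. The group called Dox here (2 libraries) received doxycycline at 500 ng/ml for 6 h and the group called noDox (2 libraries) received solvent alone, with nuclear RNA taken from 500000 cells per library. No group in the labels received doxycycline without the transgene, so effects of the drug and of CDX2 cannot be told apart. The labels do not say whether the libraries of a group are separate cultures, so the p-values cover no more than these libraries, whose spread may be technical. The errors behind the p-values also carry a spread shared by all transcripts instead of that between the libraries for each gene, as described below.

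TGF-beta is made as a precursor and leaves the cell as an inactive complex, in which the mature dimer stays wrapped in its own propeptide. In most cells that complex is bound to an LTBP, which tethers it to fibrillin and fibronectin in the matrix, and integrins and proteases release the active ligand. Free ligand binds the type II receptor, which phosphorylates the type I receptor, and the latter activates Smad2 and Smad3. Vasorin is a membrane protein with leucine-rich repeats that binds TGF-beta, and its extracellular part, shed by the protease ADAM17, is known to dampen TGF-beta signalling. Fibroblasts both secrete TGF-beta and respond to it with matrix production.

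The upstream sequences of the genes with the largest fall and the largest rise, and those of both starts of Ltbp1, the gene with the most transcript rows, are shown here. They lie before the annotated starts of these transcripts, and the use of each start in these cells was not tested. RefSeq promoter entries (build GRCm38.p6, the assembly that mm10 names) matched 9 of the 10 members with 13 start sites, and all 13 equal the start of a transcript row in the deposited table. Each line gives the 250 bases before the start, 5′ to 3′ on the strand of the gene, and capitals mark a match to a motif searched. The Vasn stretch is chr16:4639695-4639944 (plus strand), that of Tgfb1 is chr7:25686752-25687001 (plus strand), and those of Ltbp1 are chr17:75005279-75005528 for the long form and chr17:75178531-75178780 for the short form (both plus strand).
Vasn: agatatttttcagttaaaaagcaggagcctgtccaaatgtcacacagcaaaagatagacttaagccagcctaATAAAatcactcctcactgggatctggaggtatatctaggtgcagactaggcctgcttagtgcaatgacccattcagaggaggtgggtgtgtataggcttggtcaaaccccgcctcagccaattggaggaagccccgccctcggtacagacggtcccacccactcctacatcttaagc
Tgfb1: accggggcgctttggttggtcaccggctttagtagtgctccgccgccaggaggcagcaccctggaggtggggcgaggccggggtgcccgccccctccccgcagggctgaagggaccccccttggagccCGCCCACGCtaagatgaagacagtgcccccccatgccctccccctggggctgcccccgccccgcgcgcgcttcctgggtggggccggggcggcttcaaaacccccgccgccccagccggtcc
Ltbp1 long form: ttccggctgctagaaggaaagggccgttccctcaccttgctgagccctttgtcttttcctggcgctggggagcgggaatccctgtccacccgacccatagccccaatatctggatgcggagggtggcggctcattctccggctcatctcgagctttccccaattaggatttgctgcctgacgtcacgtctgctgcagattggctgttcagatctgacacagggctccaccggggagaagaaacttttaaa
Ltbp1 short form: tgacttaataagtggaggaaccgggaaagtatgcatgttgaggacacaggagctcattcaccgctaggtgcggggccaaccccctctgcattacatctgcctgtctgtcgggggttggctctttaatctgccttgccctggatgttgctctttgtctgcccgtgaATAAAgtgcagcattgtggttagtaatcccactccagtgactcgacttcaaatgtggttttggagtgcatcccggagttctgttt

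The motifs searched on both strands were TTTAT, the core letters of CDX binding sites, its longer form CAATAAA, the AP-1 site TGANTCA, the EGR site GCGNGGGCG, the Smad palindrome GTCTAGAC and the TATA box TATAAA. The CDX core overlaps the longer form and the TATA box, since its reverse complement is ATAAA. The Vasn stretch holds ATAAA, which begins 178 bases before the start, and the short Ltbp1 stretch holds it 85 bases before the start. The Tgfb1 stretch holds 1 match to the EGR letters, CGCCCACGC, 122 bases before the start, and the long Ltbp1 stretch holds none of these motifs. Over the 13 member stretches, 5 hold TTTAT (beside 37.3% of all 32851 RefSeq stretches of this length), 4 hold GCGNGGGCG (beside 4.7%), 1 holds TATAAA (beside 12.4%), and 0 hold the longer CDX form, the AP-1 site or the Smad palindrome (beside 4.2%, 6.75% and 0.167%). The 4 stretches with the EGR letters are those of Tgfb1, of 1 start of Tgfbr1 and of 2 starts of Ltbp4 whose stretches overlap. These 4 hold 74.8% to 79.2% G and C, beside a median of 52.4% over all stretches, and the fixed EGR letters are all G or C. The 4.7% is over stretches of any base composition, and a share among stretches as rich in G and C was not computed. Before Vasn, 49.6% of the bases were G and C, and before Tgfb1 75.2%. These matches are letters in a window and do not show a bound factor.

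The values come from the authors' deposited table, where each transcript has 1 mean level and 1 fold change and no value per library, so single libraries cannot be shown. Transcripts without reads share 1 low level there, from which an effective library of 45700000 counts follows as a geometric mean over the 4 libraries, if 0.5 counts were added to each value before the logarithm. For genes with several rows the one with the highest mean level was used, and the 12355 genes that reached a floor of 10 counts (mean of the libraries) were tested. Group levels in CPM (counts scaled for library size) were computed from the mean level and the fold change. Cdx2 itself stood at 4.96 CPM in noDox and 612 CPM in Dox. All 10 fibroblast markers were tested, with means of 5.64 to 2086 CPM, and they summed to 6787 CPM in noDox and 5603 CPM in Dox. Of these, 7 were lower and 1 higher in the authors' deposited table, beside 13.4% and 11.3% of all genes tested. The 5 epithelial markers summed to 1.48 and 0.637 CPM, the 4 endothelial ones to 4.62 and 3.95 CPM and the 4 leukocyte ones to 6.62 and 9.0 CPM, and their part in the results was not tested. Most of the epithelial sum was Cdh1, the only 1 of these 5 genes that was tested, which was lower (1.43 CPM in noDox and 0.464 CPM in Dox). Krt19 went the other way, from 0.0105 CPM in noDox to 0.128 CPM in Dox, but had about 1.18 counts per library and was under the floor. Its log2 fold change was 3.60 with an adjusted p of 2.07e-07 in the authors' deposited table. Most of the leukocyte sum was Cd14, which was higher (5.52 and 8.07 CPM). The directions of Cdh1 and Cd14 are by the authors' deposited table. Krt18 and the macrophage gene Adgre1 were the defining markers of other cell types listed without reads. In such bulk libraries, fewer cells of a kind and less RNA per cell cannot be told apart.

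After 6 h of doxycycline, 3 members were higher (Tgfb1, Tgfb3 and Ltbp1), 3 were lower (Vasn, Ltbp2 and Ltbp4) and 3 did not pass (Tgfbr1, Tgfbr2 and Ltbp3), by the adjusted p of the authors' deposited table with a threshold of 0.05. Of all genes tested there, 24.7% passed, 11.3% higher and 13.4% lower, and since the comparison itself was used to propose the members nothing is read from their count beside these shares. The remaining member, Tgfb2, had about 5.2 counts per library and was under the floor, so 9 of 10 genes and 20 of 22 transcript rows were tested. A single member, Vasn, changed by at least 2-fold. The median size of the change over the 9 tested members was 0.30 on the log2 scale, beside 0.13 over all genes tested. The median signed change was -0.069, beside -0.0011 over all genes tested.

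**Figure D1:**
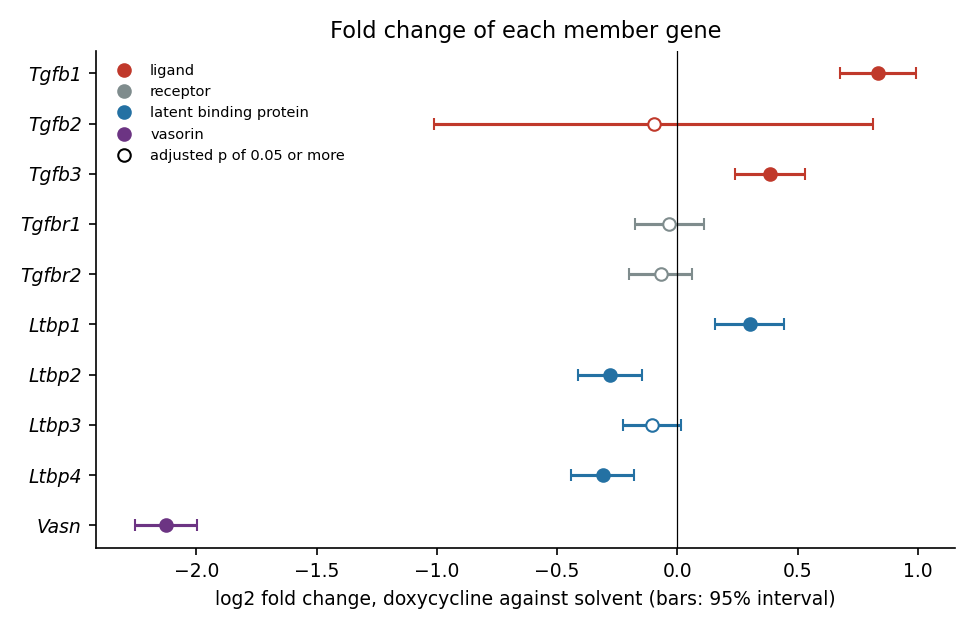
Log2 fold change of each of the 10 genes with doxycycline against solvent (x axis), with 95% intervals that assume normal errors. Filled points passed the adjusted p threshold of 0.05 (the authors' deposited table) and colours give the role. Vasn lies at -2.13, away from all others, Tgfb1 at 0.83, and the wide interval of Tgfb2 reflects its few reads.

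Vasn (NM_139307, mm10 chromosome 16, 4639945 to 4651166, plus strand) went from 180 CPM in noDox to 41.2 CPM in Dox, so 22.9% of its level was left. Its log2 fold change in the authors' deposited table was -2.13 ± 0.065 (± standard error, edgeR and limma named by the submitters), a 4.37-fold fall (95% interval 4.0 to 4.77) with an adjusted p of 4.33e-225. Per kilobase of exon, it had the highest level of the 10 genes without doxycycline (56.4 CPM per kb) and rank 3 with it (12.9 CPM per kb). Among the genes tested, 7 others had a log2 fold change as low or lower in the authors' deposited table, and all 7 had a lower mean level than Vasn. Of the 1353 genes with a mean at or above the 86.1 CPM of Vasn, 6 others fell at least 2-fold, the lowest at -1.30 on the log2 scale in the authors' deposited table. The whole row of Vasn, 11222 bases, lies within the span of Coro7, a coronin gene on the opposite strand.

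**Figure D2:**
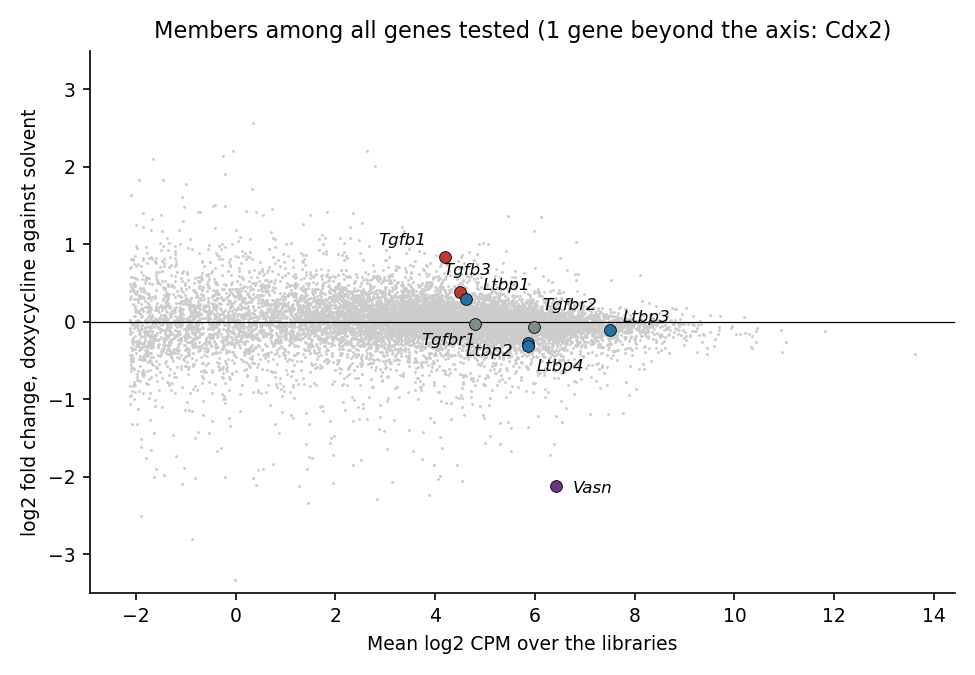
Log2 fold change (y axis) against mean log2 CPM over the libraries (x axis) for the 12355 genes tested (grey) and the 9 tested members (coloured by role as in the plot of member fold changes). Vasn lies below all genes of its level or above, while the other members lie within the cloud.

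Coro7 was higher with doxycycline, in the direction opposite to Vasn. It stood at 12.5 CPM in noDox and 14.7 CPM in Dox, with a log2 fold change of 0.23 ± 0.083 and an adjusted p of 0.0372 in the authors' deposited table. In the GENCODE M21 annotation of the same assembly, 0 Vasn exons overlap a Coro7 exon, and the nearest Coro7 exons end 1.13 kb before and start 1.76 kb after Vasn. Whether the authors counted by strand is a detail not given in the sources here, so unspliced Coro7 RNA, which is present in nuclei, could add reads to the Vasn row, and its part in the result was not tested. Of the 7 genes with rows within 100 kb of Vasn, 1 was higher (Coro7) and 1 lower (Tfap4) in the authors' deposited table. Of all genes tested there, 11.3% were higher and 13.4% lower. Tfap4, a basic helix-loop-helix factor, has its start at -80.2 kb from that of Vasn (-0.80 ± 0.075, 31.3 CPM in noDox and 18.0 CPM in Dox). The other 5 (Glis2, Pam16, Dnaja3, Nmral1 and Hmox2) did not pass and had log2 fold changes between -0.13 and 0.094 in the authors' deposited table.

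**Figure D3:**
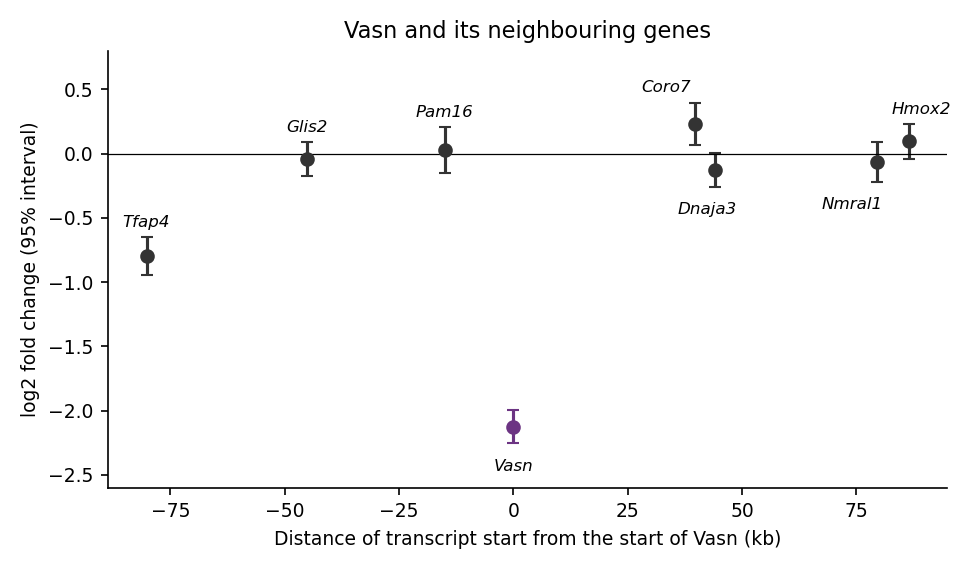
Log2 fold change with 95% intervals (y axis) of Vasn and the 7 genes with rows within 100 kb, placed by the distance of their transcript start from that of Vasn (x axis, kb). Vasn lies at -2.13 and Tfap4 at -0.80, while the other 6 lie between -0.13 and 0.23.

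Among the ligands, Tgfb1 had the largest rise. Tgfb1, the isoform most studied in wound repair and fibrosis (NM_011577, chromosome 7, 25687002 to 25705077), went from 13.8 CPM in noDox to 24.6 CPM in Dox, a 1.78-fold rise (95% interval 1.60 to 1.99). Its log2 fold change in the authors' deposited table was 0.83 ± 0.081 (adjusted p 9.36e-23), and 2.78% of the genes tested changed more in either direction. Tgfb3, known for its role in palate closure (NM_009368, chromosome 12, 86056743 to 86079041), went from 19.9 to 25.9 CPM, with a log2 fold change of 0.38 ± 0.075 and an adjusted p of 5.81e-06 in the authors' deposited table. Tgfb2 (chromosome 1, 186622792 to 186705989) was close to silent, at 0.129 CPM in noDox and 0.121 CPM in Dox, and its log2 fold change of -0.099 ± 0.47 in the authors' deposited table has an interval from -1.01 to 0.81. A change of up to about 2-fold in Tgfb2 was therefore not detectable at this depth.

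Per kilobase of exon, Tgfb1 had a larger share of the ligand level in Dox. Without doxycycline Tgfb1 and Tgfb3 stood at 6.38 and 5.89 CPM per kb, a ratio of 1.08. With doxycycline they stood at 11.4 and 7.69 CPM per kb, a ratio of 1.48. Tgfb1 thus made up 51.9% of the summed level of the 3 ligand genes in noDox and 59.6% in Dox, and the sum went from 12.3 to 19.1 CPM per kb. Vasn was 8.85 times as abundant per kilobase as Tgfb1 in noDox and 1.14 times in Dox. These sums and ratios have no error of their own, since the table holds no value per library.

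**Figure D4:**
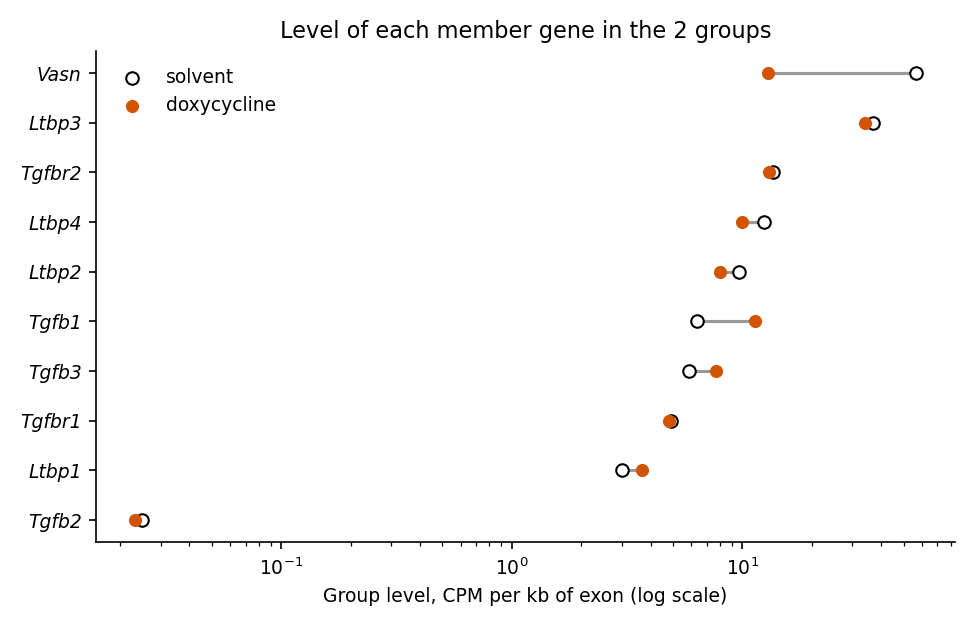
Level of each member gene in CPM per kb of exon (x axis, log scale) in noDox (open points) and Dox (filled points), ordered by the noDox level. Vasn moves from rank 1 to rank 3 and Tgfb1 from rank 6 to rank 4, while Tgfb2 stays near 0.02 CPM per kb.

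The receptors did not pass the test. Tgfbr2, the type II receptor that binds ligand first (NM_009371, chromosome 9, 116087695 to 116175363), stood at 65.1 CPM in noDox and 62.0 CPM in Dox, with a log2 fold change of -0.069 ± 0.067 and an adjusted p of 0.712 in the authors' deposited table. Tgfbr1, the type I receptor kinase that signals to the Smads (NM_009370, chromosome 4, 47353222 to 47414924), stood at 28.2 and 27.6 CPM, with -0.033 ± 0.074 and an adjusted p of 0.873 in the authors' deposited table. The 95% intervals of their log2 fold changes were -0.20 to 0.062 for Tgfbr2 and -0.18 to 0.11 for Tgfbr1. Per kilobase of exon, Tgfbr2 was 2.77 times as abundant as Tgfbr1 in noDox and 2.7 times in Dox.

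Of the 4 Ltbp genes, 1 was higher, 2 were lower and 1 did not pass by the authors' deposited table. Of all genes tested there, 11.3% were higher and 13.4% lower. Ltbp1, Ltbp2 and Ltbp4 did not pass when every standard error was multiplied by 2.08, a setting described below. Ltbp1, whose protein binds all TGF-beta isoforms and anchors them in the matrix (NM_019919, chromosome 17, 75005529 to 75392512), went from 22.1 to 27.2 CPM, with a log2 fold change of 0.30 ± 0.073 and an adjusted p of 5.80e-04 in the authors' deposited table. Ltbp4, an elastic fibre protein that binds TGF-beta1 (NM_175641, chromosome 7, 27305141 to 27337612), went from 64.9 to 52.3 CPM, with -0.31 ± 0.067 and an adjusted p of 5.28e-05 in the authors' deposited table. Ltbp2, the family member that does not bind latent TGF-beta and works in microfibrils (NM_001370743, chromosome 12, 84783212 to 84876491), went from 64.4 to 53.1 CPM, with -0.28 ± 0.068 and an adjusted p of 5.57e-04 in the authors' deposited table. Ltbp3 (NM_008520, chromosome 19, 5740900 to 5758532), which like Ltbp1 binds all isoforms, was the most abundant of the 4 at 189 CPM in noDox and 176 CPM in Dox and did not pass (log2 fold change -0.11 ± 0.062 and adjusted p 0.331, authors' deposited table). Its 95% interval runs from -0.23 to 0.016.

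Per kilobase of exon Ltbp3 led its family in both groups, with 36.8 CPM per kb in noDox and 34.2 in Dox, which was 59.5% and 61.2% of the summed level of the 4 genes. Ltbp1 had the lowest level, 2.99 CPM per kb in noDox and 3.68 in Dox, so that Ltbp3 was 12.3 and 9.28 times as abundant. Ltbp4 stood at 12.4 and 10.0 CPM per kb and Ltbp2 at 9.68 and 7.98. The span of Ltbp2 overlaps 690 bases of D030025P21Rik, a noncoding RNA read from the opposite strand, which was lower too (-0.48 ± 0.10, adjusted p 6.04e-05, in the authors' deposited table). Reads may be shared between the rows of this pair where the counting ignored strand.

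Transcript rows of the same gene gave nearly the same fold change, and since they share exons they are not separate measurements. The 6 rows of Ltbp1 had log2 fold changes between 0.27 and 0.30 in the authors' deposited table, the highest being the long form, which starts at 75005529, while the other 5 start at 75178781. Their levels were 2.99 to 3.04 CPM per kb in noDox over exon lengths of 6003 to 7388 bases. The 3 rows of Ltbp4 lay between -0.31 and -0.28 in the authors' deposited table and between 11.2 and 12.4 CPM per kb in noDox. The 3 rows of Tgfbr1 lay between -0.033 and -0.025, the 2 of Tgfbr2 at -0.069 and -0.067, the 2 of Ltbp2 both at -0.28, and the 2 of Tgfb2 at -0.17 and -0.099 in the authors' deposited table. Vasn, Tgfb1, Tgfb3 and Ltbp3 have 1 row each.

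The standard errors behind these calls follow the level and fold of a transcript almost completely (99.2% of the variance of their logarithm over 9441 genes), so they carry a spread shared by all transcripts instead of that between the replicates of each gene. When every standard error was multiplied by 2.08 (the spread of t among tested genes, as a robust SD), Vasn and Tgfb1 still passed (adjusted p 2.53e-51 and 5.30e-05) and Tgfb3, Ltbp1, Ltbp2 and Ltbp4 did not (0.169, 0.403, 0.400 and 0.259), while 4.66% of all genes tested passed. The spread was taken over all genes tested, changed ones included, so 2.08 is not an estimate of the error between replicates. A call lost in this setting does not show that a gene was unchanged.

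Other genes of the pathway were taken from 6 lists by role, with 84 genes of which 69 were tested. Of these, 14 were higher, 22 were lower and 33 did not pass by the authors' deposited table, beside 24.7% called over all genes tested. With the standard errors widened, 9 were higher and 8 lower, beside 4.66% of all genes tested that passed in that setting. The lists hold genes chosen with earlier results of these data known, so the counts are a description.

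Among co-receptors and decoys, 1 of 6 was lower and 0 were higher in the authors' deposited table (all genes tested: 13.4% lower and 11.3% higher). This was Tgfbr3, which encodes betaglycan, a co-receptor that presents ligand to the type II receptor, with 106 CPM in noDox and 74.8 CPM in Dox (-0.50 ± 0.065, adjusted p 9.80e-13, in the authors' deposited table). Of 8 Smad genes, 6 did not pass by the authors' deposited table, beside 24.7% of all genes tested that passed. The 6 include Smad2 (0.038 ± 0.069) and Smad3 (-0.082 ± 0.069), the effectors of the TGF-beta branch, the common partner Smad4 (-0.013 ± 0.066) and the inhibitor Smad7 (-0.091 ± 0.066). The inhibitor Smad6, which acts mostly on the BMP branch, rose from 2.47 to 3.53 CPM (0.52 ± 0.14, adjusted p 0.00234, in the authors' deposited table). Smad9, a BMP effector named after its value was seen, fell from 0.905 to 0.445 CPM (-1.02 ± 0.26, adjusted p 0.00117, in the authors' deposited table), a level of about 28.5 counts per library. Neither Smad6 nor Smad9 passed with the standard errors widened.

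Smad regulators changed in both directions, with 2 of 13 higher and 7 lower in the authors' deposited table (3 lower with the standard errors widened). Over all genes tested, 11.3% were higher and 13.4% lower, and 4.66% passed with the standard errors widened. Dab2, an endocytic adaptor that links the receptors to Smads, fell from 113 to 68.4 CPM (-0.73 ± 0.065), and Tgif2, a homeobox corepressor of Smads, fell from 10.4 to 7.21 CPM (-0.53 ± 0.094) in the authors' deposited table. Skil, which encodes the Smad corepressor SnoN, rose from 26.7 to 41.3 CPM (0.63 ± 0.072), and the ubiquitin ligase gene Nedd4l rose from 33.3 to 46.9 CPM (0.49 ± 0.070) in the authors' deposited table.

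Genes of latency and activation had 4 of 17 higher and 4 lower in the authors' deposited table (all genes tested: 11.3% and 13.4%). With the standard errors widened, 2 were higher and 1 lower (all genes tested: 4.66% in either direction). Itgb8, a subunit of an integrin that activates latent TGF-beta, fell from 5.80 to 3.29 CPM (-0.82 ± 0.12), and the protease gene Plau, which encodes urokinase, fell from 4.99 to 3.54 CPM (-0.50 ± 0.12) in the authors' deposited table. Emilin1, a matrix protein that holds back processing of the TGF-beta precursor, rose from 11.5 to 19.5 CPM (0.76 ± 0.081), and the integrin gene Itgb3 rose from 21 to 31.4 CPM (0.58 ± 0.075) in the authors' deposited table. Adam17, the protease that sheds vasorin, stood at -0.033 ± 0.067 and Furin, which cleaves the TGF-beta precursor, at 0.079 ± 0.064, and neither passed (adjusted p 0.873 for Adam17 and 0.573 for Furin, authors' deposited table).

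Known TGF-beta target genes had 4 of 16 higher and 8 lower in the authors' deposited table (all genes tested: 11.3% and 13.4%). With the standard errors widened, 3 were higher and 3 lower (all genes tested: 4.66% in either direction). Junb, an AP-1 subunit, rose from 18.5 to 31.2 CPM (0.75 ± 0.076) and Bhlhe40, a transcriptional repressor, from 15.5 to 24.5 CPM (0.66 ± 0.082) in the authors' deposited table. Snai1, a repressor of E-cadherin, fell from 23.2 to 14.5 CPM (-0.68 ± 0.079) in the authors' deposited table. The median over the 16 genes was -0.22 on the log2 scale, beside -0.0011 over all genes tested. In the activin branch 3 of 9 were higher and 1 was lower in the authors' deposited table (2 and 0 with the standard errors widened), beside the same shares over all genes tested. Acvr1b, an activin type I receptor gene (0.62 ± 0.076), Fstl1, a secreted follistatin-like protein (0.60 ± 0.061), and Acvr2b, an activin type II receptor gene (0.22 ± 0.077), rose, and Inhba, the activin A subunit gene, fell (-0.45 ± 0.076) in the authors' deposited table.

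**Figure D5:**
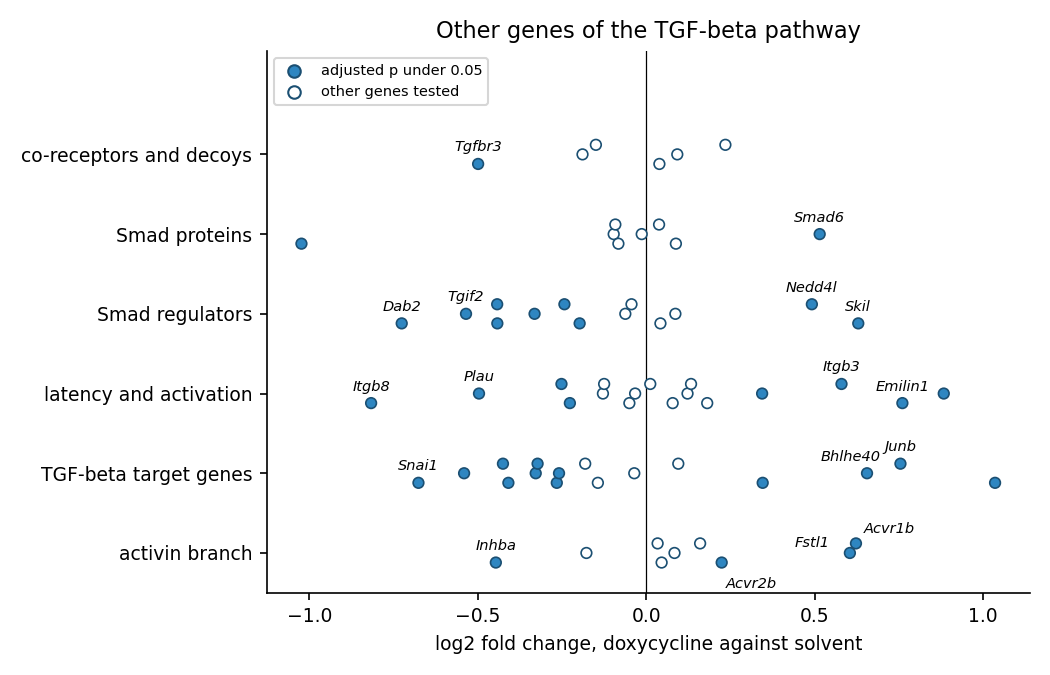
Log2 fold change (x axis) of the 69 tested genes of 6 pathway lists (rows). Filled points passed the adjusted p threshold of 0.05 (the authors' deposited table), and up to 4 called genes per list with large changes and a mean of at least 1 CPM are named. Points lie on both sides of 0 in every list.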

How the data were processed

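Nuclear RNA of 4 libraries (2 Dox, 2 noDox) was made with a directional kit, per the labels' protocols. Tools named, per the submitters' processing notes and with no role or order, are limma, edgeR, HOMER 4.10, STAR 2.7.1a, Picard and SAMtools 1.10, with build mm10. The dose is 500 ng/ml in one protocol and the same figure per microlitre in the other. The deposited table compares the groups, with log2 values (fold change and mean level), a t score and a p-value, raw and adjusted, for each transcript, per the file headers, and the deposited table gives other columns used here, start, end and exon length. The adjustment matches 44446 rows, and 3707 of these were not analysed here. Members and lists were chosen with earlier results of these data known.

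The table holds no counts, so the planned count models were replaced by the authors' own test. Standard errors are log2 fold change over t, and intervals (95%) assume normal errors. Mean counts and the floor of 10 (0.230 CPM) assume that 0.5 counts were added per library before the logarithm and that the 9211 rows at the lowest level have no reads, and group levels are the mean plus or minus 0.5 times the log2 fold change. Named genes are all members, up to 4 called genes per list with the largest change and a mean of at least 1 CPM, the 5 genes nearest Vasn in fold with a mean of at least 10 CPM, and genes that overlap a member or lie within 100 kb of Vasn; genes outside this rule are those that did not pass, given for their role, and Smad9. Some genes that meet the rule are not reported here. Alternatives changed the transcript, the floor, the adjustment, the centre and the standard error. Python 3.11.15, scipy 1.17.1 and pandas 2.3.3 were used, and the retesting code was checked on simulated data.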

Additional observations from a re-analysis of the deposited data

How the results depend on the processing

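No paired analysis was possible because the table holds no value per library, and for the same reason leaving out libraries and a second count model were not run. In 8 alternatives (longest transcript, no floor, floor of 50 counts, adjustment over the genes tested, centring on all genes or on 76 ribosomal protein genes, removal of the level trend, widened standard errors), the 9 tested members gave 72 fold changes, of which 68 stayed on their side of the threshold, 4 lost the call and 0 of the called members changed sign. The longest transcript and both floor settings returned the same value and adjusted p for each of the 9. The row used was already the longest, and all 9 lie above both floors, so these settings could not change a call. Tgfbr1, which did not pass, went from -0.033 to 0.012 when centred on ribosomal protein genes. All 4 losses (Tgfb3, Ltbp1, Ltbp2, Ltbp4) came with widened standard errors, which left 1 member higher and 1 lower and 9 other pathway genes higher and 8 lower. The log2 fold change of Vasn ranged from -2.13 to -2.07, and that of Tgfb1 from 0.79 to 0.88. Centring on ribosomal protein genes (median -0.046) raised the share of rises among all called genes from 45.7% to 60.1% and left the 3 higher and 3 lower members. All genes tested numbered 1393 higher and 1654 lower, 2169 and 1437 after that centring, and 190 and 386 with widened standard errors. The first pair uses the deposited adjusted p, while the centred and widened settings use normal errors and an adjustment over the genes tested. The adjustment over the genes tested alone gave 1575 higher and 1817 lower, with a share of rises of 46.4%. With a floor of 50 counts Smad9 was not tested. The precision of levels is not known without values per library, and Tgfb2 lies under the floor.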

Other observations

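Among the 5 genes whose log2 fold change was nearest to that of Vasn, counting genes whose mean reached 10 CPM, were Vdr, Sema7a, Medag and Nrg1, with differences of 0.092, 0.11, 0.13 and 0.27 over this 1 comparison. Nrg1, which encodes the ErbB ligand neuregulin 1, went from 29.7 CPM in noDox to 8.24 CPM in Dox (-1.85 ± 0.084 in the authors' deposited table). Sema7a, a semaphorin gene, went from 31.8 to 6.75 CPM, Vdr, which encodes the vitamin D receptor, from 33.5 to 8.18 CPM and Medag from 34.0 to 8.51 CPM. These 4 had lower mean levels than Vasn, between 14.6 and 17.0 CPM.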
